A study of Mus musculus with 9 samples.

Results

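The collagen chain genes encode the alpha chains that wind in threes into collagen triple helices. Each row of the deposited expression table whose symbol is Col, a number, the letter a and a number was taken, which gave 44 of 35321 genes. Of these 44, 21 were tested, having at least 1 FPKM (fragments mapped per kilobase of transcript, scaled to the library's depth) in 3 or more of the 9 libraries, and 23 were not. The samples were subcutaneous tumours grown from LLC (Lewis lung carcinoma) cells, a line of C57BL/6 origin, in the right flank of male C57BL/6 mice that were 4 to 5 weeks old. From day 5 the mice received intraperitoneal vehicle (PBS), 0.1 mg/kg of digoxin (the lower dose) or 1 mg/kg of digoxin (the higher dose), with 3 poly(A) RNA libraries per group. Digoxin, a cardiac glycoside, blocks the sodium-potassium pump of the cell membrane. The comparisons asked how collagen transcripts of the tumour tissue differed at each dose from vehicle and between the doses. Whether the libraries of a group are separate mice is not in the labels, and the p-values then cover only the spread among libraries, which may be technical. A tumour holds both the injected cells and cells of the host, so in every result here fewer cells of a type and less RNA per cell cannot be told apart.

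Collagens are classed by what their trimers build. Fibrillar collagens (types I, II, III, V, XI, XXIV and XXVII) form the cross-banded fibrils of connective tissue, in which type I carries most of the tensile strength, type III forms thinner fibrils and type V regulates fibril diameter. Network collagens form sheets: type IV is the scaffold of basement membranes, and types VIII and X form hexagonal lattices. Type VI forms beaded filaments, type VII anchors epidermis to dermis, FACIT collagens bind to the surface of fibrils, and the multiplexins, types XV and XVIII, lie in basement membrane zones. In tumours most fibrillar collagen is known to come from fibroblasts, although carcinoma cells can make collagen too.

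Each chain repeats the unit Gly-X-Y, so that in the coding sequence a glycine codon (GGN) is followed by a pair of other codons, over and over. The stretches below, from the mouse coding sequences of GENCODE M21 (GRCm38), show this for chains whose RNA differed between the groups. Each holds 63 bases, and capitals mark glycine codons.
Col1a1: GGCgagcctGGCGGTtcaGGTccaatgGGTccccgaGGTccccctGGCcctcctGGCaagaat
Col3a1: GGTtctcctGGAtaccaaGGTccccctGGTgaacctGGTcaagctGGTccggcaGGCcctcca
Col5a2: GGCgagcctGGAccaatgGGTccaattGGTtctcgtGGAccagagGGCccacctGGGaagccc
Col24a1: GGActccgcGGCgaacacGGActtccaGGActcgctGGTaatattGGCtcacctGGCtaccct
Col4a5: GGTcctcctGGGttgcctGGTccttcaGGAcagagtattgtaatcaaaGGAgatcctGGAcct
The Col1a1 stretch covers codons 198 to 218, that of Col3a1 codons 194 to 214, that of Col5a2 codons 241 to 261 and that of Col24a1 codons 598 to 618, all inside an unbroken run. The Col4a5 stretch covers codons 1363 to 1383 and shows an interruption after the fourth glycine codon, of the kind that type IV chains carry throughout. The longest unbroken run was 337 to 344 repeats in 9 of the 11 fibrillar genes, and 216 and 217 repeats in the divergent chains Col24a1 and Col27a1. In the 6 type IV genes it was 39 to 66 repeats, with 22 to 27 separate runs of at least 4 repeats per gene. Over the 33 genes that are not fibrillar, the longest run was 23 to 113 repeats.

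The depth in the denominator of FPKM, recovered from the spacing of the values, was 48649867 to 51810956 reads with vehicle, 42870997 to 43319883 at the lower dose and 40517062 to 42252370 at the higher dose. On the first principal component of all tested genes (69.4% of the variance), the vehicle libraries scored -47.6 to -55 and 4 digoxin libraries scored 35.7 to 37.9. Sample 2 at 0.1 mg/kg (-0.6) and sample 1 at 1 mg/kg (9.1) lay between them. The lung epithelial genes Nkx2-1 and Sftpc and the epithelial gene Epcam were at or near 0 in all 9 libraries (at most 0.179 FPKM). Vim, an intermediate filament gene of mesenchymal cells, was at 706 to 1353 FPKM. The keratin genes Krt8 and Krt18 differed in opposite directions: Krt8 was at 1.7 to 4.13 FPKM with vehicle and 58.7 to 126 FPKM with digoxin, and Krt18 at 43.1 to 63 and 0.932 to 16.8 FPKM. Whether the groups hold the same stock of tumour cells, and whether the in-between libraries hold mixed material, was not tested, and every difference from vehicle given here carries that limit.

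Digoxin libraries held less collagen RNA in total and a different mixture of chains. The FPKM summed over all 44 genes was 1757, 1803 and 1776 with vehicle, 1204, 1203 and 1083 at the lower dose, and 1319, 1310 and 1219 at the higher dose. The groups with digoxin thus lay below every vehicle library, at 0.654 and 0.721 of the vehicle mean. Rescaled to TPM, a unit that gives every library the same total, these ratios were 0.604 and 0.679. Most of the difference in the sums was in Col3a1, at 638 FPKM in mean with vehicle and 215 and 193 at the lower and higher dose. Without Col3a1 the sums at the higher dose overlap those with vehicle, while those at the lower dose stay below. The sums are a description of the libraries, with no test. Fibrillar chains summed to 778 ± 32.4 FPKM (mean ± SD, n = 3) with vehicle and to 448 ± 101 and 482 ± 112 at the lower and higher dose. That lower sum is due to Col3a1 in it. The other fibrillar chains together were higher in every digoxin library than in any vehicle library. Type VI chains summed to 546 ± 13.8, 327 ± 48.2 and 338 ± 39.0 FPKM. Network chains, mainly Col4a1 and Col4a2, were at 207 ± 10.8, 191 ± 38.8 and 244 ± 24.3 FPKM, so their share of collagen FPKM was 10.8% to 12.1% with vehicle and 12.4% to 20.9% with digoxin. In the 2 libraries that lay between the groups the fibrillar sum was 564 and 609 FPKM, against 378 to 435 FPKM in the other 4 digoxin libraries. The transmembrane collagens and the remaining minor collagens, with no tested gene, summed to at most 1.03 and 0.311 FPKM in any library.

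**Figure D1:**
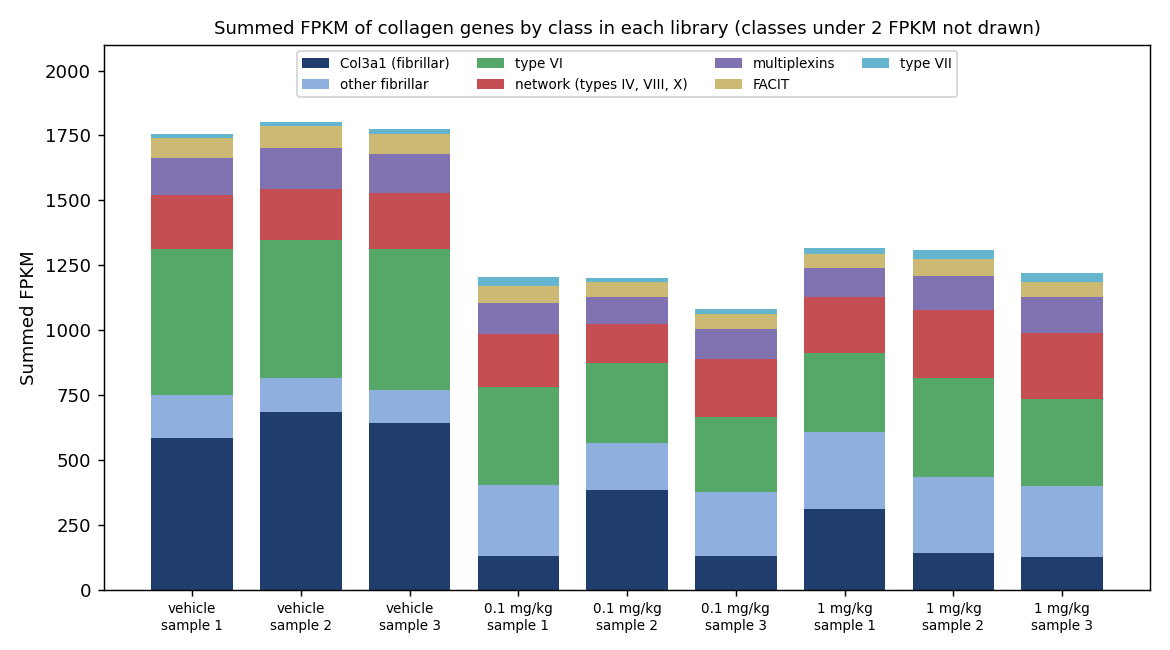
Stacked bars of the FPKM of collagen genes summed by class, 1 bar per library, with Col3a1 drawn apart from the other fibrillar genes. All 6 digoxin bars (1083 to 1319 FPKM) are lower than the 3 vehicle bars (1757 to 1803 FPKM), and Col3a1 and the type VI genes are lower in each of them than in any vehicle bar.

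At 0.1 mg/kg 13 of the 21 tested collagens passed an adjusted p of 0.05, 5 higher and 8 lower than with vehicle. Among all 13687 tested genes 42.2% passed, 21.6% higher and 20.7% lower. At 1 mg/kg 14 passed, 6 higher and 8 lower, against 45.9% of all genes (20.7% higher and 25.2% lower). At that dose the count was 9 without its sample 3, where 4450 of all genes passed in place of 6277. Of the genes counted, Col24a1, Col4a5 and Col9a3 reached 1 FPKM in digoxin libraries only and Col14a1 in the vehicle libraries and 1 digoxin library, so they entered the test through the groups where they are high. Of the 16 collagens with a mean of at least 5 FPKM over all libraries, 10 passed at each dose, 3 higher and 7 lower. Of all 8179 genes with such a mean, 3877 passed at 0.1 mg/kg (1887 higher and 1990 lower). At 1 mg/kg 4159 of them passed (1831 higher and 2328 lower). With quantile normalisation the split was 3 higher and 8 lower at 0.1 mg/kg, and among all genes 2403 higher and 3552 lower in place of 2952 and 2829. The values of the digoxin and vehicle libraries did not overlap for 14 of 21 collagens at the lower dose and 16 at the higher dose, against 60.2% and 58.3% of all tested genes. The median log2 fold change of the tested collagens was -0.15 and 0.01, beside 0.02 and -0.04 over all tested genes. At 1 mg/kg the collagen median was -0.10 with quantile normalisation and -0.08 with TPM. Both doses were compared with the same 3 vehicle libraries. Calls at both doses were made for 10 collagens: Col1a1, Col5a3, Col24a1 and Col9a3 were higher, and Col3a1, Col5a2, Col14a1, Col16a1, Col6a1 and Col6a2 were lower. Without the 2 libraries that lay between the groups, a choice made after seeing the data, 16 and 17 collagens were called. That fit also called more of all 13687 genes, 8424 and 8392 in place of 5781 and 6277. With no filter on low values the calls of Col24a1 and Col9a3 at both doses, and of Col6a3 and Col15a1 at the higher dose, were lost (adjusted p = 0.0534 to 0.108).

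**Figure D2:**
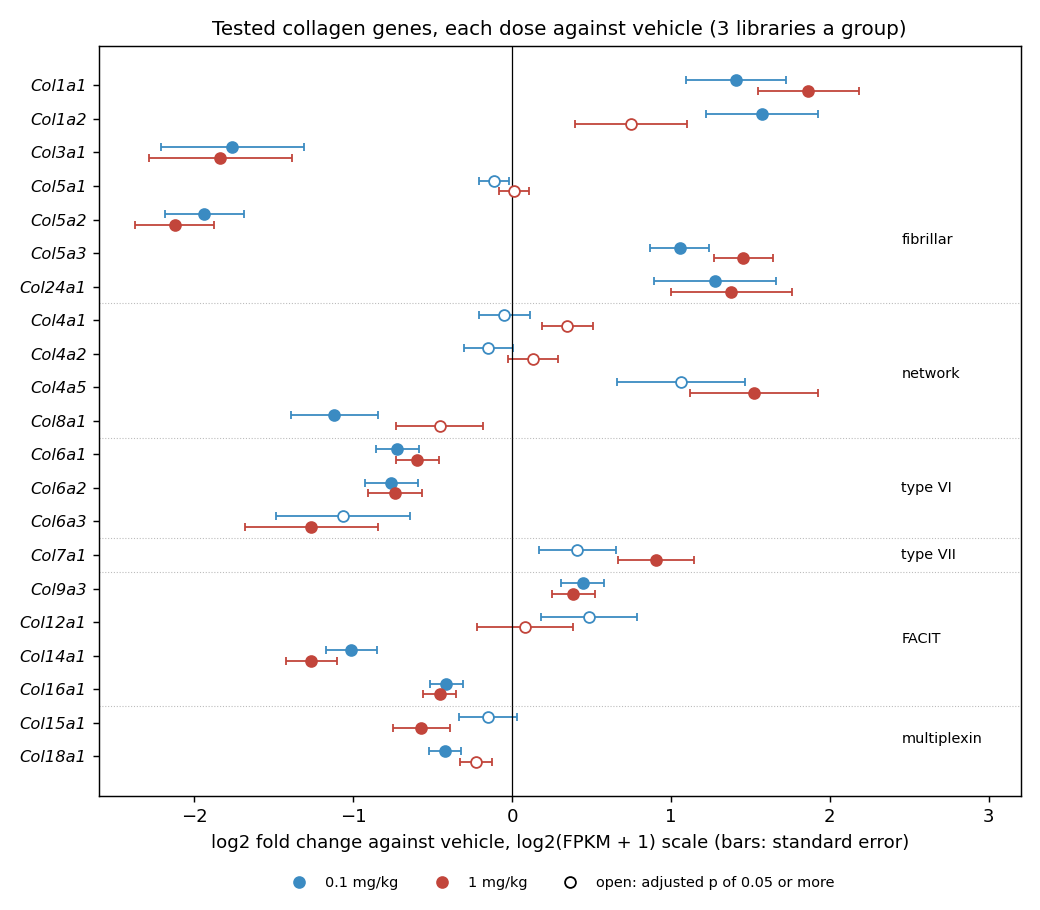
Log2 fold change of each tested collagen against vehicle with its standard error, 1 point per dose, on the log2(FPKM + 1) scale. Filled points passed an adjusted p of 0.05; the fibrillar genes range from -2.12 (Col5a2) to 1.86 (Col1a1) at 1 mg/kg, and the type VI genes lie below 0 at both doses.

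Of the 7 tested fibrillar genes, 4 rose and 2 fell at the lower dose, and 3 rose and 2 fell at the higher dose. Col1a1, Col5a3 and Col24a1 rose at both doses and Col1a2 at the lower one, Col3a1 and Col5a2 fell, and Col5a1 did not pass the test. Col1a1, the major chain of type I collagen, was at 58.1, 35.8 and 26.3 FPKM with vehicle, 131, 68.1 and 121 at the lower dose, and 120, 167 and 141 at the higher dose. Every digoxin library was above every vehicle library, and the lowest of them was the one of the 0.1 mg/kg group that lay between the groups. The log2 fold change was 1.41 (SE 0.32, adjusted p = 0.00913) and 1.86 (SE 0.32, adjusted p = 0.00261). Its partner Col1a2, which supplies the remaining chain of the type I trimer, was at 3.93, 2.9 and 2.32 FPKM with vehicle and 10.3, 11.1 and 11.3 at 0.1 mg/kg. At the higher dose it was at 12, 3.36 and 4.32 FPKM, so sample 1 was as high as the lower dose and the remaining pair lay near vehicle. The rise passed at 0.1 mg/kg (1.57, SE 0.35, adjusted p = 0.00924) but not at 1 mg/kg (0.75, SE 0.35, adjusted p = 0.114), where it passed only without sample 2 (1.06, adjusted p = 0.0438).

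Col3a1, which encodes the single chain of type III collagen, had the highest FPKM of all collagens with vehicle. It was at 586, 684 and 644 FPKM with vehicle, 132, 384 and 130 at the lower dose, and 310, 141 and 128 at the higher dose. The 2 intermediate values, 384 and 310, are those of the libraries that lay between the groups, and neither reached the vehicle range. Col3a1 fell by 1.76 on the log2 scale (SE 0.45, adjusted p = 0.0151) and by 1.84 (SE 0.45, adjusted p = 0.0113). The call at 0.1 mg/kg was lost without vehicle sample 2 or without sample 1 or 3 of that dose (adjusted p = 0.0516 to 0.0594). Its share of all collagen FPKM was 33.4% to 38% with vehicle, 31.9% and 23.5% in the in-between libraries and 10.5% to 12% in the other 4.

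Type V chains diverged from one another. Col5a2 was at 14.9, 11.7 and 16.7 FPKM with vehicle, 3.54, 2.87 and 2.62 at the lower dose, and 4.38, 1.81 and 1.86 at the higher dose, with no overlap between vehicle and either dose. It fell by 1.94 (SE 0.25, adjusted p = 0.00115) and by 2.12 (SE 0.25, adjusted p = 0.000723), and kept both calls whichever library was left out. Col5a3, a chain of a rarer type V trimer, was at 31.9, 25 and 28.2 FPKM with vehicle, 65.2, 52.3 and 62.2 at the lower dose, and 108, 67.4 and 67.6 at the higher dose. It rose by 1.05 (SE 0.19, adjusted p = 0.00376) and 1.45 (SE 0.19, adjusted p = 0.000985), also in every fit that left out 1 library. Col5a1, present in most type V trimers, stayed between 43.5 and 56.2 FPKM in all 9 libraries. Its log2 fold change was -0.11 (95% interval -0.33 to 0.10) and 0.01 (-0.21 to 0.23). Col3a1 and Col5a2, which both fell, are neighbouring genes on chromosome 1 in the RefSeq annotation of GRCm38.p6.

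Col24a1, a divergent fibrillar chain described in bone and cornea, was at 0.1, 0.21 and 0.094 FPKM with vehicle, 2.98, 0.565 and 2.34 at the lower dose, and 0.801, 2.77 and 2.78 at the higher dose. These values rest on 37 to 80 recovered reads per vehicle library and 185 to 973 per digoxin library. The lowest digoxin values, 0.565 and 0.801, were again those of the in-between libraries. The log2 fold change was 1.28 (SE 0.38, adjusted p = 0.0274) and 1.38 (SE 0.38, adjusted p = 0.0186), which the added 1 FPKM makes smaller than the ratio of the mean FPKM (14.6 and 15.7). Col24a1 entered the test only through digoxin libraries, since no vehicle library reached 1 FPKM, and with no filter neither call held (adjusted p = 0.0738 and 0.0534). Leaving out any 1 vehicle library, or sample 1 or 3 at 0.1 mg/kg, ended the call at that dose (adjusted p = 0.0656 to 0.0952), as did quantile normalisation (adjusted p = 0.0969). The call at 1 mg/kg was lost without vehicle sample 1 or 3, or sample 2 or 3 of that dose (adjusted p = 0.0528 to 0.0656).

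**Figure D3:**
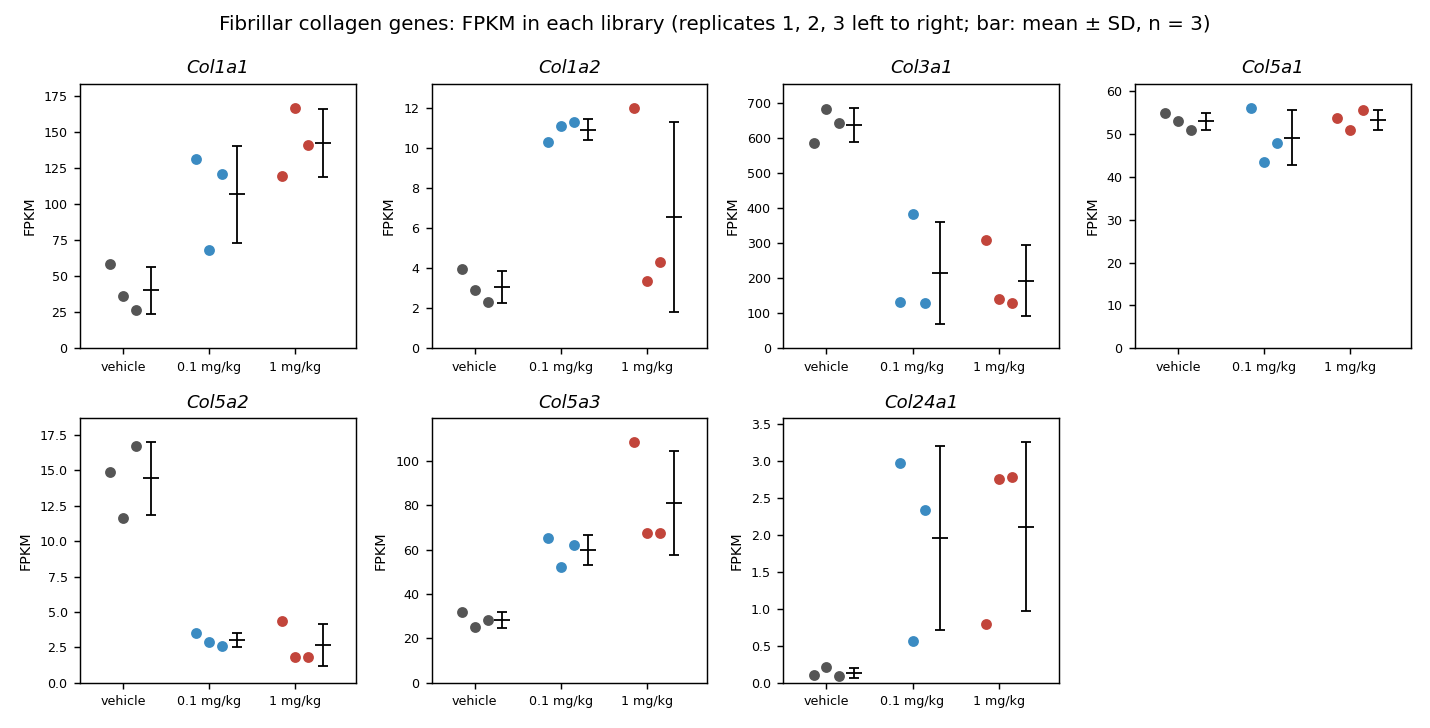
FPKM of the 7 tested fibrillar genes, 1 point per library with mean ± SD (n = 3) beside each group, on axes that start at 0. Col3a1 and Col5a2 are lower and Col1a1, Col5a3 and Col24a1 higher in all 6 digoxin libraries than in any vehicle library, while Col5a1 overlaps throughout.

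The ratio of 2 chains within a library does not depend on the library's depth. Col1a1 over Col3a1, both in FPKM, was 0.0992, 0.0524 and 0.0409 with vehicle, 0.998, 0.177 and 0.932 at the lower dose, and 0.387, 1.18 and 1.1 at the higher dose. All 6 digoxin libraries were above vehicle. Col5a3 over Col5a2 went from 1.99 ± 0.259 (SD, n = 3) with vehicle to 20.1 ± 3.17 and 32.8 ± 6.96, again with no overlap of vehicle and digoxin libraries, and here the lowest 1 mg/kg library (24.8) was above the highest 0.1 mg/kg library (23.8). Col1a1 over Col1a2 was 11.3 to 14.8 with vehicle and 6.12 to 12.7 at 0.1 mg/kg, where the ranges overlapped. At 1 mg/kg it was 9.96, 49.6 and 32.5, so samples 2 and 3 held far more Col1a1 per Col1a2 than any other library. In recovered reads, with no division by length, Col1a1 over Col1a2 was 5.99 to 7.81 with vehicle, 3.23 to 6.73 at the lower dose and 5.26, 26.2 and 17.2 at the higher dose. The FPKM of Col1a2 was divided by a length of 12426 bases, the union of all its GENCODE exons, against 6563 for Col1a1, although the coding sequences hold 1372 and 1453 codons. Its level beside other genes is therefore set low by that length, while comparisons between libraries are untouched. Col4a1 over Col4a2 differed by less, but without overlap among the 3 groups. It was 1.264 to 1.327 with vehicle, 1.33 to 1.421 at the lower dose and 1.471 to 1.556 at the higher dose. No test was made of these ratios.

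**Figure D4:**
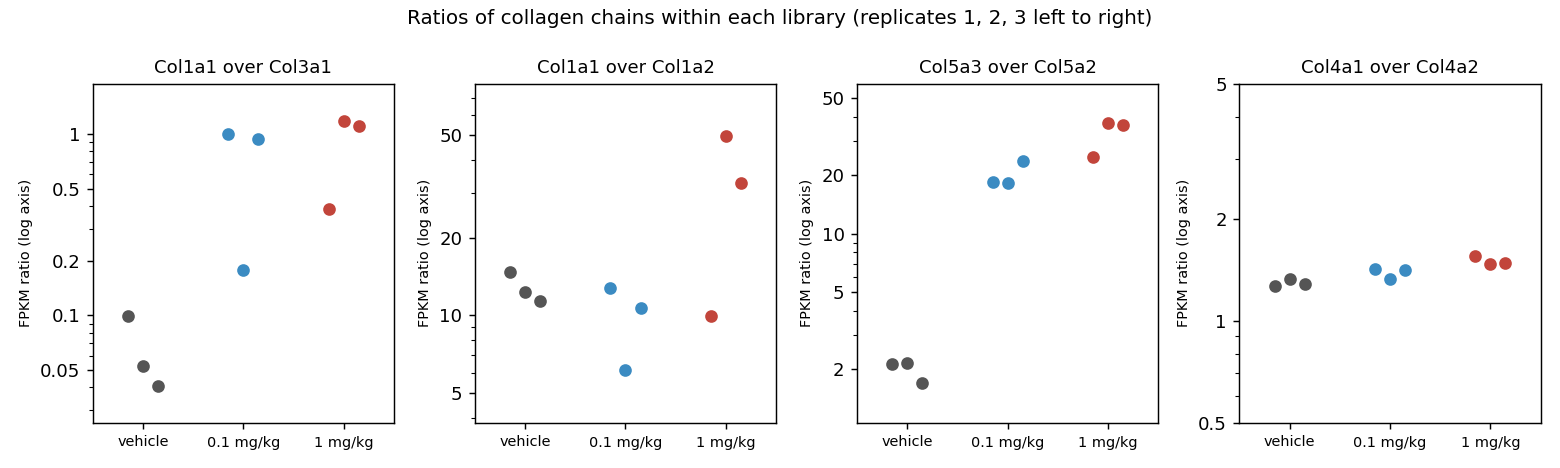
Ratios of the FPKM of chain pairs within each library, 1 point per library on log axes. Col1a1 over Col3a1 and Col5a3 over Col5a2 are higher in all 6 digoxin libraries than with vehicle, Col1a1 over Col1a2 stands apart in samples 2 and 3 at 1 mg/kg, and Col4a1 over Col4a2 stays between 1.26 and 1.56.

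Promoter windows were compared for fibrillar genes that moved in opposite directions, Col3a1 down and Col5a3 and Col24a1 up. Each window holds the 250 bases before the RefSeq start of the gene (GRCm38.p6) and is written along the gene's strand. Capitals mark matches on either strand to any of 4 motifs: CCAAT, the TATA box TATAAA, the AP-1 site TGANTCA and the GC box GGGCGG.
Col3a1, chr1:45311288-45311537, plus strand: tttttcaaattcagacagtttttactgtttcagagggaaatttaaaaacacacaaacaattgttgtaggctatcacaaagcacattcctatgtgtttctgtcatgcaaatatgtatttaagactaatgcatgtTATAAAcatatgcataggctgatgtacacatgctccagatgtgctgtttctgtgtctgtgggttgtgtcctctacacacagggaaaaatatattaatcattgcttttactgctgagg
Col5a3, chr9:20815068-20815317, minus strand: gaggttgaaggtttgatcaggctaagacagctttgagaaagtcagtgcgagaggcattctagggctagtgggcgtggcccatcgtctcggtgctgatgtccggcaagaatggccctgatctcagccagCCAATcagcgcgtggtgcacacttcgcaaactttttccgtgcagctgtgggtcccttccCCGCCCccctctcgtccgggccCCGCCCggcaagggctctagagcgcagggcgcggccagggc
Col24a1, chr3:145292222-145292471, plus strand: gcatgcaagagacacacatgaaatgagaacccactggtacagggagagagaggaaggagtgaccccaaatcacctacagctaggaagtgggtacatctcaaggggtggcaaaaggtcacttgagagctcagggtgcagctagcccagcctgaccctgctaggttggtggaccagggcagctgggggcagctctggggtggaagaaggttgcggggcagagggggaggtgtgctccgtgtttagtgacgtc
The Col3a1 window held 1 TATAAA and none of the other motifs, the Col5a3 window 1 CCAAT and 2 GC boxes on the opposite strand, and the Col24a1 window none. Of 32851 windows in the table, 12.4% held TATAAA, 33.8% CCAAT, 32.7% GGGCGG and 6.75% TGANTCA. Among 38 windows of 35 collagen genes, 5 held TATAAA, 13 CCAAT, 22 GGGCGG and 1 TGANTCA. These matches describe letters in the window and say nothing of binding.

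Of the network collagens, the 2 abundant type IV chains did not pass the test, the minor chain Col4a5 rose at the higher dose and Col8a1 fell at the lower dose. Col4a1 was at 110, 103 and 114 FPKM with vehicle, 114, 80.4 and 128 at the lower dose, and 123, 151 and 144 at the higher dose. At the higher dose all 3 values were above vehicle, with a log2 fold change of 0.35 (95% interval -0.02 to 0.71, adjusted p = 0.108). That difference passed without sample 2 at 0.1 mg/kg, which enters the shared estimate of spread (adjusted p = 0.0187). It also passed with only the 2 groups compared (adjusted p = 0.0251) and without both in-between libraries (0.43, adjusted p = 0.00195), and in no other setting. Col4a2 passed at the higher dose only without both in-between libraries (0.24, adjusted p = 0.0374). In the main fit Col4a2, the partner of Col4a1 in the common type IV trimer, was at 77.8 to 88.9, 60.4 to 90.7 and 79.3 to 103 FPKM (log2 -0.15, adjusted p = 0.456, and 0.13, adjusted p = 0.51).

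Col4a5, a chain of the specialised type IV trimers of kidney, lung and smooth muscle basement membranes, was near 0 with vehicle. Its FPKM was 0.012, 0.012 and 0.003 there, from 4, 4 and 1 recovered reads. At 0.1 mg/kg it was 2.02, 0.284 and 1.42, from 582, 82 and 413 reads, and at 1 mg/kg 0.578, 2.89 and 2.97, from 164, 789 and 808 reads. Every digoxin library was above every vehicle library, and the in-between libraries were the lowest of their groups. The gene entered the test only through digoxin libraries, since no vehicle library reached 1 FPKM. On the log2(FPKM + 1) scale the fold change was 1.06 (SE 0.40, adjusted p = 0.0605) and 1.52 (SE 0.40, adjusted p = 0.0154). With a pseudocount of 0.01 it was 5.69 at 0.1 mg/kg and passed (adjusted p = 0.0035), so the value depends on the pseudocount. It also passed with TPM (1.99, adjusted p = 0.0259), with limma-voom (6.67, adjusted p = 0.0314), and without either in-between library (adjusted p = 0.0168 and 0.0152). At the higher dose the call was lost without sample 2 or 3 of that dose (adjusted p = 0.0537 and 0.0563). Col4a6, its neighbour on the X chromosome, was at 0.00579 to 0.0827 FPKM over the 9 libraries, with overlapping groups. Col4a3 and Col4a4, partners of Col4a5 in some of those trimers, were at no more than 0.0347 and 0.183 FPKM.

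Col8a1, a hexagonal network chain of vessel walls and the eye, was at 12.8, 13.4 and 11.6 FPKM with vehicle and 4.12, 7.64 and 4.52 at 0.1 mg/kg. At the higher dose it was at 13.4, 5.82 and 8.95 FPKM, with sample 1 in the vehicle range. It fell by 1.12 at 0.1 mg/kg (SE 0.27, adjusted p = 0.0127). The change at 1 mg/kg was -0.45 (adjusted p = 0.202), and it passed without sample 1 of that dose (-0.72, adjusted p = 0.034).

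All 3 tested type VI chains, which assemble as 1 trimer, were lower with digoxin in mean. Col6a1 was at 349, 337 and 358 FPKM with vehicle, 254, 185 and 198 at the lower dose, and 201, 259 and 233 at the higher dose. Col6a2, its neighbour on chromosome 10, was at 146, 124 and 132, at 97.7, 66.6 and 74.8, and at 66, 96.6 and 79.9 FPKM in the same order. Neither gene's digoxin values overlapped with vehicle. Col6a1 fell by 0.72 (SE 0.13, adjusted p = 0.0044) and 0.60 (adjusted p = 0.00805), and Col6a2 fell by 0.76 (SE 0.17, adjusted p = 0.00881) and 0.74 (adjusted p = 0.00875). The 4 calls were kept whichever library was left out, and none reached a 2-fold change. Col6a3, the largest chain, was at 66, 73.2 and 52.4 FPKM with vehicle, 28.8, 59.3 and 15.2 at the lower dose, and 35.5, 24.1 and 19.9 at the higher dose. Its in-between library at 0.1 mg/kg (59.3) lay inside the vehicle range. The log2 fold change was -1.06 (SE 0.42, adjusted p = 0.0689), or -1.55 without that library (adjusted p = 0.00511) and -1.20 with TPM (adjusted p = 0.0497), and -1.26 at 1 mg/kg (SE 0.42, adjusted p = 0.0362). The call at 1 mg/kg was lost in 6 of 9 fits that left out 1 library: any vehicle library, sample 1 at 0.1 mg/kg, or sample 2 or 3 at 1 mg/kg (adjusted p = 0.0511 to 0.112). Col6a1 over Col6a2 in FPKM stayed at 2.39 to 2.71, 2.60 to 2.78 and 2.68 to 3.04, while Col6a3 over Col6a1 ranged from 0.0769 to 0.32 over the libraries. The size of Col6a1 over Col6a2 depends on the lengths used, 4380 bases for Col6a1 and 8326 for Col6a2, with coding sequences of 1025 and 1034 codons. In vehicle sample 1 the recovered reads were 74329 and 59187.

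Col7a1, which encodes the anchoring fibril chain, was at 16.1, 14.6 and 17.9 FPKM with vehicle, 31.5, 15.5 and 21.2 at the lower dose, and 24.1, 36.5 and 34.3 at the higher dose. It rose by 0.91 at 1 mg/kg (SE 0.24, adjusted p = 0.0157), where all 3 values were above vehicle. That call was lost without vehicle sample 2 or sample 2 or 3 of the dose (adjusted p = 0.0529 to 0.0561). At 0.1 mg/kg the value was 0.41 (SE 0.24, adjusted p = 0.194), and it passed without sample 2 of that dose (0.65, adjusted p = 0.0374).

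Of the FACIT genes, which encode collagens attached to fibril surfaces, Col14a1 and Col16a1 fell, Col9a3 rose and Col12a1 did not pass. Col14a1 was at 2.44, 2.62 and 2.99 FPKM with vehicle, 0.635, 1.06 and 0.793 at the lower dose, and 0.864, 0.46 and 0.317 at the higher dose. It fell by 1.01 (SE 0.16, adjusted p = 0.00238) and 1.26 (adjusted p = 0.000903), and kept both calls in every fit that left out 1 library. With a pseudocount of 0.01 the changes of Col14a1 were -1.71 and -2.39, and its mean FPKM with vehicle was 3.23 and 4.90 times that at the lower and higher dose. Col16a1 was at 72 to 82.8 FPKM with vehicle, 53.4 to 59.95 at the lower dose and 48.7 to 61.7 at the higher dose. Its fall was small, by 0.41 (SE 0.10, adjusted p = 0.013) and 0.46 (adjusted p = 0.00765), and at 0.1 mg/kg it missed the threshold without vehicle sample 2 or sample 3 of the dose (adjusted p = 0.0541 and 0.0514). Col9a3, a chain of the type IX collagen of cartilage, was at 0.597 to 0.71 FPKM with vehicle, 1.02 to 1.59 at the lower dose and 0.972 to 1.4 at the higher dose. The groups did not overlap, and the log2 fold change was 0.44 (adjusted p = 0.0289) and 0.39 (adjusted p = 0.0436). With a pseudocount of 0.01 it was 0.91 and 0.81, and the ratio of the mean FPKM was 1.92 and 1.77. Col9a3 entered the test only through digoxin libraries, since no vehicle library reached 1 FPKM. Both Col9a3 calls were lost with quantile normalisation (adjusted p = 0.361 and 0.263) and without any 1 vehicle library, and that at the higher dose also with TPM (adjusted p = 0.0508). They were also lost without sample 1 or 3 at 0.1 mg/kg for the lower dose, and without sample 1 at 0.1 mg/kg or sample 1 or 3 at 1 mg/kg for the higher dose (adjusted p up to 0.107 and 0.146). Col12a1 was at 0.608 to 0.653 FPKM with vehicle and spread to 2.39, 1.29 and 0.524 at the lower dose and 1.44, 0.39 and 0.489 at the higher dose (log2 0.49, adjusted p = 0.218, and 0.08, adjusted p = 0.847).

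Each of the 2 multiplexin genes fell at 1 of the doses. Col18a1, whose product releases endostatin, was at 136, 153 and 146 FPKM with vehicle, 117, 98.4 and 107 at the lower dose, and 110, 127 and 134 at the higher dose. It fell by 0.42 at 0.1 mg/kg (SE 0.10, adjusted p = 0.0115). At the higher dose the change was -0.23 (adjusted p = 0.0912), although no value overlapped with vehicle, and it passed with quantile normalisation (adjusted p = 0.0323) and TPM (adjusted p = 0.0316). Col15a1 was at 5.59, 5.17 and 7.22 FPKM with vehicle, 5.58, 4.19 and 6.14 at the lower dose, and 2.74, 4.01 and 4.43 at the higher dose. It fell by 0.57 at 1 mg/kg (SE 0.18, adjusted p = 0.0309), a call lost without vehicle sample 1 or 3 or without sample 1 or 2 of that dose (adjusted p = 0.0528 to 0.11). The change at 0.1 mg/kg was -0.15 (adjusted p = 0.52).

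**Figure D5:**
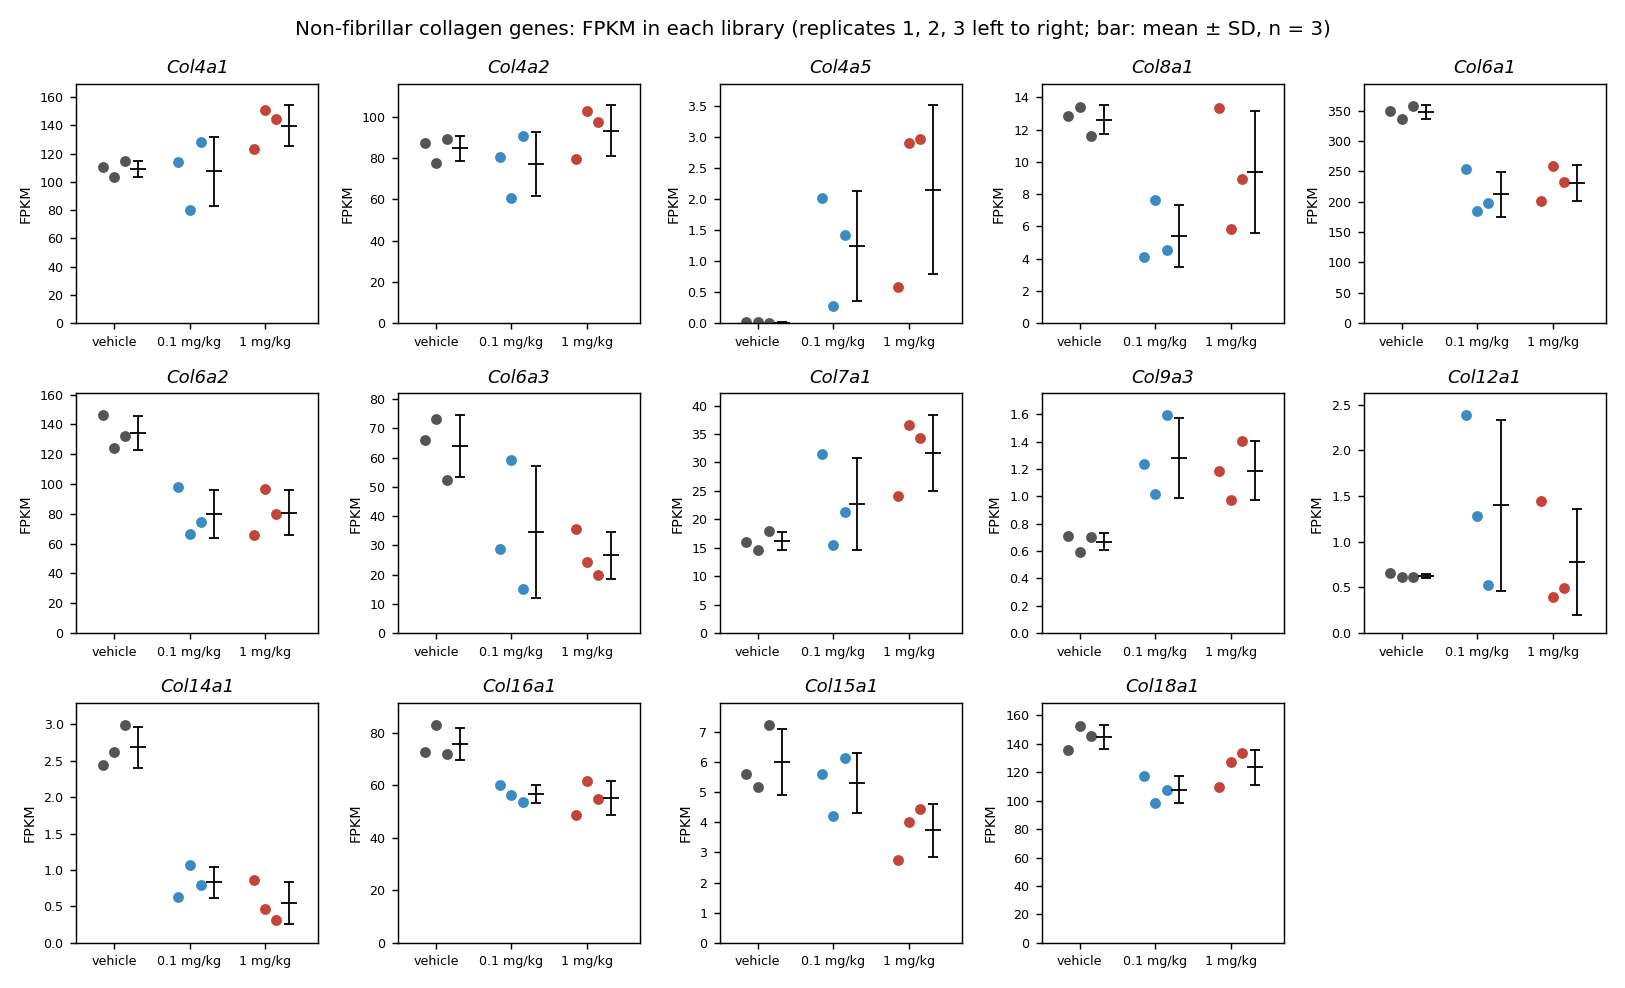
FPKM of the 14 tested genes of the other classes, 1 point per library with mean ± SD (n = 3) beside each group, on axes that start at 0. Col6a1, Col6a2, Col14a1 and Col16a1 are lower in all 6 digoxin libraries than in any vehicle library, Col4a5 and Col9a3 are higher, and Col4a2 and Col12a1 overlap at both doses.

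The 23 genes below the filter held little RNA, and 12 of them stayed under 0.1 FPKM in every library: Col10a1, Col11a1, Col17a1, Col19a1, Col25a1, Col26a1, Col4a3, Col4a6, Col6a4, Col6a6, Col8a2 and Col9a2. Col20a1 (0.203 to 0.421 FPKM), Col23a1 (0.133 to 0.853), Col13a1 (0.0412 to 0.354), Col4a4 (0.0461 to 0.183), Col9a1 (0 to 0.64) and Col6a5 (0 to 0.24) were higher in at least 1 library. Col11a2, a cartilage chain of type XI, was at 0.888, 0.951 and 1.02 FPKM with vehicle, 0.438, 0.884 and 0.574 at the lower dose, and 0.616, 0.348 and 0.345 at the higher dose. Col2a1, the main cartilage chain, was at 0.0173 to 0.046 FPKM with vehicle, from 8 to 22 reads, and at 0.171 to 0.659 FPKM with digoxin, from 68 to 261 reads. In a fit with no filter Col2a1 passed at 1 mg/kg (log2 0.54, adjusted p = 0.0399) and not at 0.1 mg/kg (0.45, adjusted p = 0.0736). Col11a2 passed at neither the lower nor the higher dose in that fit (-0.27, adjusted p = 0.267, and -0.45, adjusted p = 0.0679). In the same fit the FACIT gene Col22a1 (0.18, adjusted p = 0.0118) and Col27a1 (0.21, adjusted p = 0.0292) were higher at 0.1 mg/kg. Col28a1 was lower at both doses (-0.24, adjusted p = 0.0233, and -0.24, adjusted p = 0.0198), from 35 to 79 reads with vehicle to 0 to 14 reads with digoxin.

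Between the doses limma called none of the 21 tested collagens, and 2 of all 13687 genes (0.0146%). At an unadjusted p under 0.05 there were 4 collagens: Col1a2, Col4a1, Col8a1 and Col15a1. Limma-voom on recovered reads also called 0. The values of the doses did not overlap for 1 collagen, Col5a3 (52.3 to 65.2 FPKM at the lower dose and 67.4 to 108 at the higher dose), against 17% of all tested genes. Its log2 difference, 1 mg/kg minus 0.1 mg/kg, was 0.40 (95% interval -0.02 to 0.83, adjusted p = 0.403). For Col1a2 the difference was -0.83 (-1.63 to -0.02, adjusted p = 0.358), and for Col8a1 it was 0.67 (0.04 to 1.29, adjusted p = 0.337). The intervals were as wide as -1.10 to 0.95 for Col3a1 and -0.26 to 1.17 for Col1a1, so the data leave room for differences of over 2-fold between the doses. Without the pair of libraries between the groups, Col1a2 was called lower at 1 mg/kg (-1.29, adjusted p = 0.0154). That fit called 465 of all 13687 genes between the doses.

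Genes that act on collagen chains were counted by lists, to be read against the 42.2% and 45.9% of all tested genes that passed at the lower and higher dose (20.7% and 25.2% lower). Of 22 tested genes that fold and hydroxylate the chains in the endoplasmic reticulum, 3 rose and 10 fell at the lower dose, and 4 rose and 6 fell at the higher dose (median log2 -0.18 and -0.08). At the higher dose the share called was thus close to that of all genes. P4ha2, a subunit of the prolyl hydroxylase that stabilises the helix, rose from 3.08 to 4.67 FPKM with vehicle to 12.8 to 21.2 and 28.9 to 37.5 (log2 1.83, adjusted p = 0.000581, and 2.75, adjusted p = 0.00015). P3h2, which makes 3-hydroxyproline, rose from 0.800 to 0.856 FPKM to 2.74 to 7.72 and 3.98 to 7.34 (log2 1.69, adjusted p = 0.00387, and 1.94, adjusted p = 0.00191). P3h2 entered the test only through digoxin libraries, since no vehicle library reached 1 FPKM. Colgalt1, which adds galactose to hydroxylysine, fell from 63.1 to 65.1 FPKM to 29.3 to 33.5 and 37.8 to 42.9 (log2 -0.99, adjusted p = 0.000221, and -0.67, adjusted p = 0.000675). Crtap, a partner of prolyl 3-hydroxylation, fell by 0.43 and 0.54.

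Of the 11 tested genes that process procollagen or cross-link fibrils, 5 rose and 3 fell at the lower dose and 4 rose and 3 fell at the higher dose (median 0.43 and 0.25). The lysyl oxidase family split. Loxl1 rose from 1.31 to 3.59 FPKM to 13.2 to 37.3 and 10.1 to 27.4 (log2 3.13, adjusted p = 0.00203, and 2.60, adjusted p = 0.00333). Loxl2 fell from 16.9 to 17.3 FPKM to 1.79 to 4.82 and 1.66 to 3.44 (log2 -2.15, adjusted p = 0.000939, and -2.39, adjusted p = 0.000556), and Loxl4 fell by 0.92 and 0.84. Adamts14, a procollagen N-proteinase, rose by 0.55 and 0.38. Among 14 fibril-associated matrix genes, 3 rose and 4 fell at the lower dose and 2 rose and 6 fell at the higher dose (median -0.15 and -0.63). Fbn1, the chain of fibrillin microfibrils, fell from 16.6 to 20.5 FPKM to 4.08 to 7.58 and 2.83 to 6.34 (log2 -1.64, adjusted p = 0.00326, and -1.97, adjusted p = 0.00135). Fn1 (fibronectin) fell by 0.59 and 0.65, and Dcn (decorin) by 1.36 and 1.96. Ogn, another small proteoglycan gene, fell by 1.11 at 1 mg/kg and was at -0.40 at 0.1 mg/kg (adjusted p = 0.16).

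Of 10 tested genes for collagen receptors and uptake, 1 rose and 1 fell at the lower dose and 4 rose and 2 fell at the higher dose (median 0.45 and 0.18). Mrc2, which takes up collagen fragments, fell from 13.2 to 13.6 FPKM with vehicle to 0.477 to 5.97 at 1 mg/kg (log2 -2.48, adjusted p = 0.0166), and was at 1.92, 8.97 and 1.2 FPKM at 0.1 mg/kg (-1.85, adjusted p = 0.052). Mrc1, the macrophage mannose receptor, rose by 1.15 and 0.88. Itgb1, the shared beta chain of collagen-binding integrins, fell by 0.29 at the lower dose, and Ddr2, a receptor for fibrillar collagen, fell by 0.48 at the higher dose. Of 9 basement membrane partners of type IV collagen, 1 rose and 4 fell at each dose (median -0.44 and -0.42). The laminin genes Lama4 and Lamb1 fell by 1.11 and 1.17 and by 0.62 and 0.71, and Hspg2 (perlecan) fell by 0.90 and 0.88, while Agrn (agrin) rose by 1.00 and 1.20.

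Of 7 tested collagen-cleaving enzymes, 2 rose and 2 fell at the lower dose and 2 rose and 3 fell at the higher dose (median -0.59 and -0.45). The secreted collagenases Mmp8 and Mmp13 rose, Mmp8 from 0.430 to 1.86 FPKM with vehicle to 2.77 to 18.6 and 13.1 to 18.0 FPKM (adjusted p = 0.0112 and 0.00251) and Mmp13 from 2.55 to 6.74 FPKM by 2.07 and 2.02 on the log2 scale. The membrane-bound collagenase Mmp14 fell by 0.59 and 0.89 from 121 to 131 FPKM, and Fap, a protease of fibroblasts, fell by 0.88 and 1.01. Of 15 tested TGF-beta pathway genes, 2 rose and 9 fell at the lower dose and 4 rose and 5 fell at the higher dose (median -0.31 and -0.19). This pathway is a known inducer of collagen transcription. Smad3, one of its transcription factors, fell from 15.5 to 17.8 FPKM to 2.33 to 7.48 and 2.03 to 4.08 (log2 -1.97, adjusted p = 0.00361, and -2.20, adjusted p = 0.002). The ligand gene Tgfb3 fell by 1.20 and 1.64 and the receptor gene Tgfbr2 by 0.30 and 0.51, while Ccn2, a known target, rose by 0.37 (adjusted p = 0.0478) and 1.34 (adjusted p = 0.000423).

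Markers of cell types that a tumour can hold were measured in the same libraries, and their counts stand beside the same 42.2% and 45.9% of all tested genes. Of 11 tested fibroblast markers, 4 fell at 0.1 mg/kg (Pdgfra, Dpt, Dcn and Fap) and 2 rose (Thy1 and Mfap5), and 5 fell at 1 mg/kg, those 4 with Lum. The twelfth, Tcf21, was at 0 in 8 libraries. Dcn and Lum also stand in the list of fibril-associated genes and Fap in that of cleaving enzymes. The summed FPKM of the fibroblast list was 644 to 690 with vehicle, 328, 555 and 264 at the lower dose and 432, 260 and 273 at the higher dose. At each dose the in-between library was the highest, as it was for Col3a1. The median log2 fold change of the list was 0.01 and 0.12, which differs in sign from the change of its sum. Gsn, an abundant member, was at 130 FPKM in mean with vehicle and at 147 and 151 FPKM at the lower and higher dose (log2 0.17 and 0.22), and did not pass. The part of this difference in the collagen results was not tested. Pdgfra, which encodes a receptor that marks fibroblasts, was at 9.46 to 11 FPKM with vehicle, 4.93 to 6.58 at the lower dose and 4.25 to 6.46 at the higher dose (log2 -0.69, adjusted p = 0.00673, and -0.82, adjusted p = 0.00289).

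Of 10 endothelial and 7 pericyte or smooth muscle markers limma called 0 at either dose, as did limma-voom. At an unadjusted p under 0.05 there were 2 pericyte or smooth muscle markers at the lower dose (Pdgfrb and Des) and 0 others. The lists had sums of 75.5 to 92.6, 84 to 126 and 43.5 to 138 FPKM and of 76.7 to 83.2, 53.7 to 76.3 and 33.1 to 116 FPKM. Of 9 skeletal muscle markers, 5 and 4 rose with limma (sums 52.1 to 124, 193 to 370 and 90.3 to 1191 FPKM), while limma-voom called 2 (Myh1 and Eno3) and 1 (Eno3). Of 8 macrophage markers, 5 rose at the lower dose, and 4 rose and 2 fell at the higher dose (sums 1030 to 1117, 1372 to 2087 and 865 to 1400 FPKM). Among 4 cartilage and bone markers 1 rose (Bglap) and 1 fell (Sox9) at the lower dose and 1 fell (Sox9) at the higher dose. The list had sums of 15.3 to 16.8, 13.7 to 17.8 and 15.1 to 16.4 FPKM, and Acan, Ibsp and Sp7 stayed under 0.1 FPKM. Sox9 was at 9.60 FPKM in mean with vehicle and at 4.16 and 6.12 at the lower and higher dose (limma adjusted p = 0.00142 and 0.0125). In that list Matn1, a cartilage matrix gene, was at 0.0193 to 0.0514 FPKM with vehicle and at 0.519 to 3.47 and 0.284 to 2.38 FPKM at the lower and higher dose, without overlap. The cartilage chains Col2a1 and Col9a3 were also higher in mean, while the cartilage chain Col11a2 was lower in mean, with the limits on their calls given above. Limma did not call Matn1 (log2 1.19, adjusted p = 0.0553, and 1.10, adjusted p = 0.0675), and limma-voom called it at both doses. Matn1, Bglap and the muscle marker Myh1 entered the tests only through digoxin libraries, since no vehicle library reached 1 FPKM for them. Of 3 Schwann cell markers, 2 rose and 1 fell at each dose (sums 8.36 to 9.09, 8.38 to 11.5 and 11.3 to 14.8 FPKM). Ncam1, which rose, also entered the tests only through digoxin libraries. The 1 tested epidermal marker, Sbsn, rose at both doses, with list sums of 1.6 to 4.64 FPKM and Krt14, Dsg3 and Lor under 0.1 FPKM. Of 2 tested adipocyte markers limma and limma-voom called 0, with 1 at an unadjusted p under 0.05 at each dose (sums 5.42 to 9.59, 15.6 to 44.5 and 6.15 to 24.8 FPKM). The part of these cell types in the collagen results was not tested.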

How the data were processed

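Poly(A) RNA of 9 tumour samples (3 per group) was sequenced as 150 bp read pairs, per the labels' protocols. The deposited values were FPKM of 35321 genes in 1 table. The submitters' processing notes name HISAT2 2.2.1, fastp 0.22.0 and the human build GRCh38, per the labels, although the table's symbols are those of mouse genes. How reads were counted is not given in the sources used here, nor is the annotation. The length recovered from the deposited FPKM of each of the 21 tested collagens was within 5% of its GENCODE M21 union of exons.

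For the tests FPKM became log2(FPKM + 1). The 13687 genes that reached 1 FPKM in 3 or more of the 9 libraries entered 1 fit with limma 3.58.1 (R 4.3.3): 1 mean per group, no replicate block, mean-variance trend, two-sided moderated tests, Benjamini-Hochberg adjustment over all tested genes and a threshold of 0.05. Residual degrees of freedom were 6. Whole reads within 0.03 reads were recovered for 99.95% of the tested genes and served for read counts and a limma-voom alternative. Which of read and read pair 1 recovered read stands for is not stated. The fitting step was checked and tested on simulated data. Every tested collagen is named, with up to 4 genes of each pathway list that had the smallest unadjusted p in either comparison with vehicle. The members and lists were chosen with earlier results of these data known. Promoter windows came from RefSeq (GRCm38.p6), in which 35 of the 44 genes had an entry. Coding sequences came from GENCODE M21. Python 3.11.15, NumPy 2.4.6, pandas 2.3.3 and matplotlib 3.10.9 were used for other steps.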

Additional observations from a re-analysis of the deposited data

How the results depend on the processing

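The counts of 13, 14 and 0 called collagens stayed within 1.5 times with pseudocounts of 0.1 and 0.01, no filter, a mean of at least 5 FPKM, quantile normalisation, TPM, equal medians, no trend, robust empirical Bayes, only the 2 groups compared and limma-voom. With at least a 2-fold change required as well, 8 were called at each dose against vehicle, beside 1222 and 1369 of all 13687 genes. Leaving out 1 library gave 9 to 16 at 0.1 mg/kg, 9 to 15 at 1 mg/kg and 0 between the doses. Among all 13687 genes these fits called 3414 to 7074, 4129 to 7373 and 0 to 133. Leaving out 1 library ended no call for 9 of 13 and 8 of 14 collagens. Without both in-between libraries, an alternative chosen after seeing the data, the counts were 16, 17 and 1. Among all 13687 genes they were 8424, 8392 and 465. Whether the replicate numbers pair the samples is not settled by correlations of deviations between libraries. For 0.1 mg/kg and vehicle these were 0.193, 0.132 and 0.091 with the same number and -0.135 to 0.036 with different numbers. For 1 mg/kg and vehicle they were 0.001, -0.059 and -0.006 with the same number and -0.099 to 0.146 with different numbers. Between the doses they were -0.244, -0.441 and 0.279, and -0.475 to 0.52. A fit with the replicate block called 13, 14 and 0, with Col24a1 lost (adjusted p = 0.0525) and Col6a3 gained (adjusted p = 0.0423) at 0.1 mg/kg. Of all 13687 genes that fit called 4967, 5541 and 0. TPM shifted the median log2 fold change of all genes by -0.107 at 0.1 mg/kg and -0.0882 at 1 mg/kg.

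No called gene changed direction, and the values that did were small in the main fit. At 1 mg/kg against vehicle Col12a1 turned to -0.10 with quantile normalisation and to -0.18 without both in-between libraries, and Col5a1 to -0.0227 and, with TPM, -0.0755. Over the fits without 1 library these genes ranged from -0.18 to 0.23 and from -0.0187 to 0.043. At 0.1 mg/kg Col4a1 and Col4a2 turned to 0.14 and 0.014 without both in-between libraries, and ranged from -0.19 to 0.14 and -0.27 to 0.014. Between the doses Col9a3 turned to 0.0404 with quantile normalisation and Col16a1 to 0.0022 with equal medians. Without both in-between libraries Col16a1 turned to 0.039, Col3a1 to 0.0388 and Col6a3 to 0.0631. Without 1 library the ranges between the doses were -0.14 to 0.0385 for Col9a3, -0.13 to 0.0404 for Col16a1, -0.48 to 0.44 for Col3a1, -0.30 to 0.46 for Col24a1, -0.11 to 0.18 for Col6a2 and -0.66 to 0.29 for Col6a3. The cause of these turns was not tested. Few recovered reads limit the values of Col4a5 with vehicle (1 to 4 reads) and of most genes below the filter. Library depth was higher with vehicle than with digoxin, and the cause of the few Col4a5 reads with vehicle was not tested.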
